A study of Homo sapiens with 4 samples.

Results

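Histone genes were examined on 4 microarrays of human endometrial cancer cells in which Efp, the ubiquitin ligase encoded by TRIM25, had been silenced. Members were the genes whose symbol starts with a histone family name (H1-, H2A, H2B, H3-, H3C, H4C or H4-) and that had a probe set paired with exactly 1 gene symbol, which gave 73 of the 18417 genes measured in this way. Of these, 57 were replication-dependent genes of the histone clusters and 12 were variants. The remaining members were H3-4, a histone H3 gene of chromosome 1 that was kept apart, and 3 unclassified genes, namely the pseudogenes H1-9P and H2BC19P and the antisense RNA H1-10-AS1. The 4 conditions were Ishikawa cells with siEfp, Ishikawa cells with siControl, HEC-1A cells with siEfp and HEC-1A cells with siControl, with 1 array each. Ishikawa is an endometrial adenocarcinoma line that the study describes as ERα-positive, and HEC-1A is one that it describes as ERα-negative. siEfp is a small interfering RNA against Efp and siControl is a non-targeting one; for the Ishikawa arrays the methods name duplex #A and RNA taken at 48 h, and neither is stated for the HEC-1A arrays in the sources read. All values are RMA signals on the log2 scale, all differences within a line are siEfp minus siControl, and no value within a line has a replicate check.

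Replication-dependent histone genes code for the core histones H2A, H2B, H3 and H4 and for linker histones H1, which package newly made DNA during S phase. They have no introns, lie mostly in clusters, and their mRNAs end in a stem-loop that is bound by SLBP in place of a poly(A) tail. Variant histones are encoded by separate genes that are expressed outside S phase as well, are generally polyadenylated, and take the place of the canonical histone at particular sites of chromatin. Many histone genes are near-identical in their coding sequence, so that a probe can bind the transcripts of several of them, and the values of single members are uncertain for this reason.

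TRIM25 was lower with siEfp in both lines, with signals of 7.96 in Ishikawa siEfp cells against 9.42 in Ishikawa siControl cells, and of 7.93 in HEC-1A siEfp cells against 9.50 in HEC-1A siControl cells. The SD of the differences over all genes was 0.297 in Ishikawa cells and 0.258 in HEC-1A cells. Of 8 epithelial marker genes, all 8 had at least the median signal on both Ishikawa arrays and 5 on both HEC-1A arrays, where CDH1, CLDN3 and CLDN4 were below it. Of the markers of other cell types, 1 of 5 stromal, 0 of 3 endothelial and 0 of 4 immune genes reached the median signal on any array.

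Most histone genes differed little between siEfp and siControl in either line. In these bulk samples, a change in the share of cells in S phase and a change in histone mRNA per cell cannot be told apart. The paper reports, by flow cytometry, a smaller share of cells in S phase with siEfp in both lines. How that share relates to the histone signals was not tested. In Ishikawa cells, 5 of the 73 members were at least 1.5-fold lower with siEfp, against 3.72% of all genes, and 6 were at least 1.5-fold higher, against 1.49% of all genes; without genes below the median signal the second count was 2. In HEC-1A cells, 3 members (4.11%) were at least 1.5-fold lower, against 2.04% of all genes, and 3 (4.11%) were at least 1.5-fold higher, against 1.34%. At a 2-fold difference, 3 members were lower and 2 higher in Ishikawa siEfp cells, where 0.804% and 0.136% of all genes were. The 2-fold counts in HEC-1A siEfp cells were 1 lower and 1 higher, where 0.271% and 0.103% of all genes were. The 2 members past 2-fold higher in Ishikawa siEfp cells, H4C14 and H4C15, carried the same values on all arrays, so the 73 members held 72 distinct measurements.

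The median difference of the 57 replication-dependent genes was 0.03 in Ishikawa cells and -0.06 in HEC-1A cells, while that of the 12 variants was 0.07 in Ishikawa cells and -0.05 in HEC-1A cells. The median over all genes was 0.01 in both lines. The variant median depended on which variants were counted: without the germline variants it was 0.26 in Ishikawa cells and 0.063 in HEC-1A cells, and the replication-dependent median minus it was -0.23 and -0.12. Of the replication-dependent genes, 25 were lower and 32 higher with siEfp in Ishikawa cells, whereas 37 were lower and 20 higher in HEC-1A cells. By count, 51 of 57 replication-dependent genes and 8 of 12 variants stayed within 1.5-fold in Ishikawa cells, against 94.8% of all genes. In HEC-1A cells 54 of 57 and 10 of 12 did so, against 96.6% of all genes. These counts are a description, since the members are not replicates of a condition. The medians of the replication-dependent families lay between -0.02, for linker histones H1, and 0.09, for H3, in Ishikawa cells. In HEC-1A cells they lay between -0.14, again for H1, and 0.07, for H4.

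**Figure D1:**
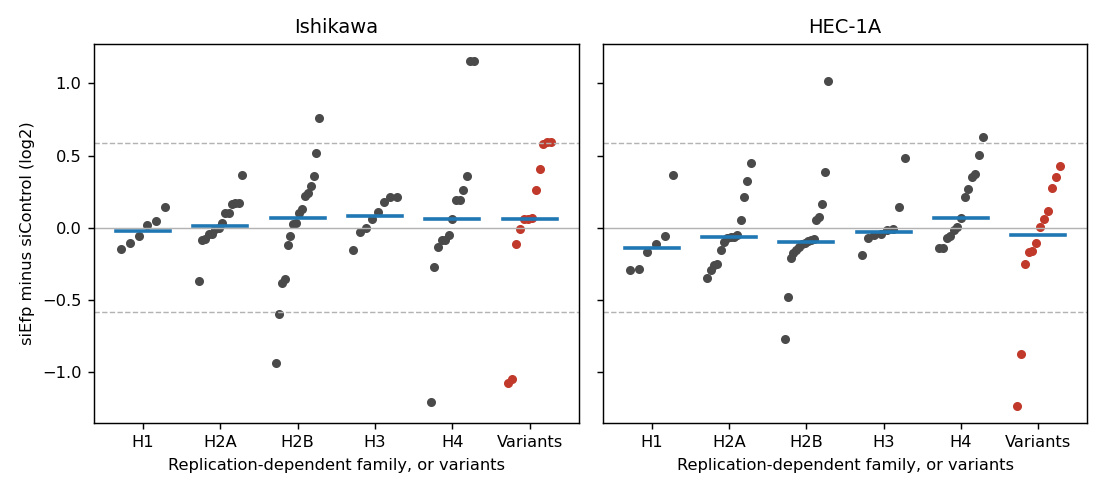
Difference between siEfp and siControl (log2, vertical axis) of each replication-dependent histone gene by family and of the variants, in Ishikawa cells (left) and HEC-1A cells (right). Each point is 1 gene, blue bars are medians and dashed lines mark 1.5-fold; family medians stay between -0.14 and 0.09, and H3-5 and H3-3B are the 2 lowest variants in each line.

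The variant genes that stood furthest from zero in both lines were H3-5 and H3-3B. H3-3B codes for histone H3.3, and H3-5 codes for the related variant H3.5. H3.3 is the H3 variant that is laid down independently of DNA replication, by the HIRA complex at active genes and by DAXX and ATRX at heterochromatin. H3-5 had signals of 9.91 in Ishikawa siEfp cells and 10.98 in Ishikawa siControl cells, and of 9.40 in HEC-1A siEfp cells and 10.63 in HEC-1A siControl cells. Its signal was thus 2.11-fold lower with siEfp in Ishikawa cells and 2.35-fold lower in HEC-1A cells. H3-3B had signals of 10.19 in Ishikawa siEfp cells and 11.23 in Ishikawa siControl cells, and of 9.68 in HEC-1A siEfp cells and 10.56 in HEC-1A siControl cells. Its signal was 2.07-fold lower with siEfp in Ishikawa cells and 1.83-fold lower in HEC-1A cells. For each of these genes, both siEfp arrays lay below both siControl arrays.

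H3-5 and H3-3B were the 2 members at least 1.5-fold lower in both lines, where 0.961% of all genes were. When the lines were fitted together in limma as 2 repeats of 1 effect, H3-5 was the 1 member called lower, with a log2 effect of -1.15 (SE 0.12, adjusted p = 0.0388), among 29 genes or 0.157% of all genes. H3-3B had a log2 effect of -0.96 and an adjusted p of 0.0711 in the same limma fit, which missed the threshold; it passed with an intensity trend (adjusted p = 0.0063) and without genes below the median signal on all 4 arrays (adjusted p = 0.015). The fit had 1 residual degree of freedom and treats the 2 lines as replicates; without cell line as a block, and after a second quantile normalization, H3-5 was not called, with a limma adjusted p of 0.0766 after that normalization. H3-5 is an intronless copy derived from H3-3B, so probes of either gene may bind both transcripts, and the 2 measurements cannot be told apart as separate changes. A further 4 probe sets carry the symbol of H3-3A, another gene for H3.3, together with that of the pseudogene H3P6. These probe sets were not counted as members. Their differences ranged from -0.32 to -0.23 in Ishikawa cells and from 0.00 to 0.07 in HEC-1A cells.

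A further 3 variants, H2AX, H2AZ1 and H1-10, were higher with siEfp in both lines. H2AX codes for the H2A variant that is phosphorylated around DNA double-strand breaks; it had signals of 9.79 in Ishikawa siEfp cells against 9.19 in Ishikawa siControl cells, and of 9.70 in HEC-1A siEfp cells against 9.27 in HEC-1A siControl cells. Its differences of 0.59 and 0.43 placed both siEfp arrays above both siControl arrays. H2AZ1 codes for H2A.Z, the variant found in nucleosomes that flank transcription start sites, and had signals of 12.02 in Ishikawa siEfp cells against 11.43 in Ishikawa siControl cells, and of 11.56 in HEC-1A siEfp cells against 11.28 in HEC-1A siControl cells. The H2AZ1 difference was 0.59 in Ishikawa cells and 0.28 in HEC-1A cells. H1-10, a linker histone gene outside the clusters, had signals of 8.22 in Ishikawa siEfp cells against 7.64 in Ishikawa siControl cells, and of 8.12 in HEC-1A siEfp cells against 7.77 in HEC-1A siControl cells. H2AX and H2AZ1 were just past 1.5-fold in Ishikawa cells, at 1.51-fold each, and H1-10 was just under it, with a log2 difference of 0.58. None of the 3 was called in the limma fit over both lines, where the adjusted p was 0.198 for H2AX, 0.289 for H2AZ1 and 0.238 for H1-10. H1-10-AS1, the antisense transcript of the H1-10 locus, was also higher with siEfp, by 0.63 in Ishikawa cells and 0.49 in HEC-1A cells, at signals of at most 5.41, below the median of all genes on each array.

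The other variants differed less. H2AZ2, the second gene for H2A.Z, had signals of 9.66 in Ishikawa siEfp cells and 9.77 in Ishikawa siControl cells, and of 9.40 in HEC-1A siEfp cells and 9.51 in HEC-1A siControl cells. Its differences of -0.11 and -0.10 thus ran against those of H2AZ1. H1-7 and H2BW2, testis histone genes with signals near the median of all genes, differed by 0.06 and 0.07 in Ishikawa cells and by -0.16 and 0.12 in HEC-1A cells. H2AJ, H2AP, H2BW1 and H1-8 stayed below the median signal on all 4 arrays, and their differences ranged from -0.01 to 0.41 in Ishikawa cells and from -0.25 to 0.06 in HEC-1A cells. MACROH2A1, a macroH2A gene that lies outside the symbol rule, differed by 0.13 in Ishikawa cells and 0.09 in HEC-1A cells.

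**Figure D2:**
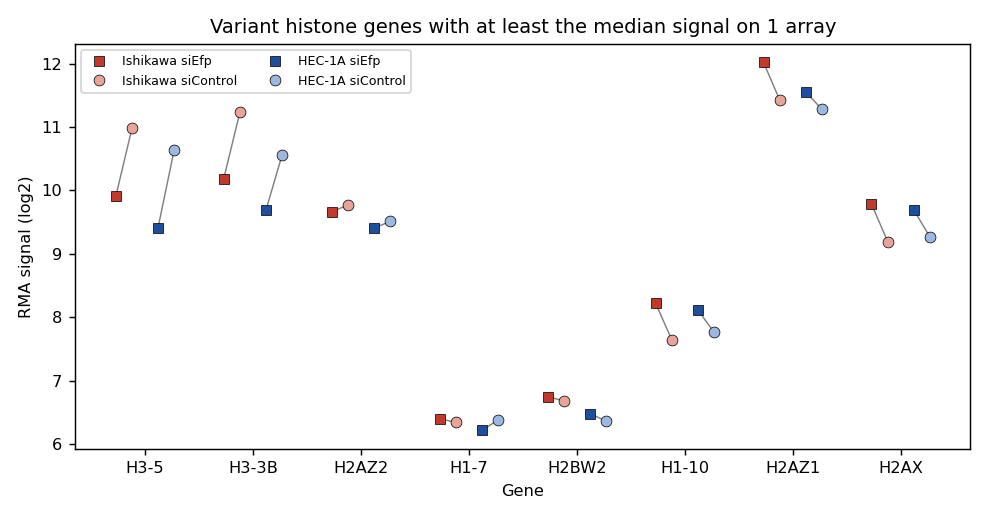
RMA signal (log2, vertical axis) of the 8 variant histone genes with at least the median signal on 1 array, with siEfp (squares) left of siControl (circles) for Ishikawa cells (red) and HEC-1A cells (blue). Each point is 1 array and lines join the arrays of 1 cell line; H3-5 and H3-3B were lower with siEfp in both lines, and H1-10, H2AZ1 and H2AX were higher in both.

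The promoters of the 3 variants past 1.5-fold in at least 1 line for which one was found are shown beside that of H2BC8, the replication-dependent gene past 1.5-fold higher in both lines, because histone promoters are known for a few short elements. RefSeq promoter sequences on GRCh38.p14, from 250 bases before to 50 bases after the start, were found for 64 of the 73 members; H3-5 was not among them. They were searched on both strands for the TATA box (TATAAA), the CCAAT box (CCAAT) and the octamer bound by OCT1 (ATTTGCAT), matches of which do not overlap one another in these sequences, and the matches are in capitals. H3-3B lies at chr17:75779730-75780029, H2AZ1 at chr4:99950226-99950525, H2AX at chr11:119095416-119095715 and H2BC8 at chr6:26216639-26216938, all on the minus strand, and each is written 5′ to 3′ in the direction of transcription.
H3-3B: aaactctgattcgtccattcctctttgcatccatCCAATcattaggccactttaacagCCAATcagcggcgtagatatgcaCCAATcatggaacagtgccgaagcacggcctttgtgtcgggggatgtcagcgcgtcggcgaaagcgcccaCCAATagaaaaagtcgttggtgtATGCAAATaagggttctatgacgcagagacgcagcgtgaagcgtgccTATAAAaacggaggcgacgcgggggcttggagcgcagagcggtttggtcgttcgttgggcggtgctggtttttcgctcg
H2AZ1: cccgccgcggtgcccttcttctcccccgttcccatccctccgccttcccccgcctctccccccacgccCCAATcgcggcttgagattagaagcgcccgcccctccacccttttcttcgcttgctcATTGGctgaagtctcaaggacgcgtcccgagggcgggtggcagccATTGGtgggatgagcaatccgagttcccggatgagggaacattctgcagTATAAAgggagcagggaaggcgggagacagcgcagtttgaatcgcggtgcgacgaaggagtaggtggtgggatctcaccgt
H2AX: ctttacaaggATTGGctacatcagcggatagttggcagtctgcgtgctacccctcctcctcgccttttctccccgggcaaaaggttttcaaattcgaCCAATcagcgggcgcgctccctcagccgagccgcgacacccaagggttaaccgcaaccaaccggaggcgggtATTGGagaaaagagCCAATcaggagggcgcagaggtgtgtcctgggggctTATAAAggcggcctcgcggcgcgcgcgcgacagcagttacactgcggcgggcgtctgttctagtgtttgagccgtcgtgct
H2BC8: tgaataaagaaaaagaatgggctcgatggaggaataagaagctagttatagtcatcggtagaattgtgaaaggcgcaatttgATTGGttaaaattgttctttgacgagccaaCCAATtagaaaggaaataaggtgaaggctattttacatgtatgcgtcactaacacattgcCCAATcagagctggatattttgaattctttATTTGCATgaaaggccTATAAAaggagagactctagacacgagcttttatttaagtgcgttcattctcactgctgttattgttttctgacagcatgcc
Each of these promoters held 1 TATA box and from 3 to 4 CCAAT boxes, and the octamer was present in H3-3B and H2BC8 alone of the 4. H1-10, which was just under 1.5-fold and is not shown, was the 1 variant whose promoter held no CCAAT box. A match is a description of the letters and not a site of binding.

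Among the replication-dependent genes, the octamer and the CCAAT box were spread unevenly over the families. The octamer was found in 23 of 52 replication-dependent promoters, namely in 10 of 13 of H2A and 13 of 16 of H2B, against 1.77% of all 35116 promoters, and in none of those of H1, H3 and H4. The promoter windows of 9 pairs of H2A and H2B genes on opposite strands overlapped by 253 to 286 bases. A match in such a shared stretch counts for both genes, so the H2A and H2B counts are not independent. In the variants it was found in 1 of 11 promoters, that of H3-3B. The TATA box was found in 34 of 52 replication-dependent promoters and 5 of 11 variant promoters, against 11.5% of all promoters. The CCAAT box was found in 44 of 52 replication-dependent promoters and 10 of 11 variant promoters, against 34.6% of all promoters; H4 promoters had it in 3 of 11.

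Of the replication-dependent genes, H2BC8 was the 1 member at least 1.5-fold higher with siEfp in both lines, where 0.179% of all genes were. It codes for a core histone H2B and lies on chromosome 6. H2BC8 had signals of 5.70 in Ishikawa siEfp cells against 4.94 in Ishikawa siControl cells, and of 7.43 in HEC-1A siEfp cells against 6.42 in HEC-1A siControl cells. The differences were 0.76 and 1.01, and the limma effect over both lines was 0.89 with an adjusted p of 0.0829, which missed the threshold. With an intensity trend and without genes below the median signal on all 4 arrays, H2BC8 passed in limma, at adjusted p of 0.0462 and 0.020. In Ishikawa cells both of its signals were below the median of all genes. No member was called higher over both lines by limma, where 0.00543% of all genes were; at an unadjusted p under 0.05, 7 members were higher and 5 lower, against 5.19% and 6.79% of all genes.

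In Ishikawa cells, 3 replication-dependent genes were at least 1.5-fold lower with siEfp. H4C16 is a histone H4 gene and the only replication-dependent member on chromosome 12. It had signals of 5.20 in Ishikawa siEfp cells against 6.40 in Ishikawa siControl cells, a 2.30-fold difference. In HEC-1A cells its signals were 2.96 with siEfp and 3.01 with siControl, far below the median of all genes of 6.25 and 6.27. H2BC21, an H2B gene of the chromosome 1 cluster whose transcripts can be polyadenylated, had signals of 8.40 in Ishikawa siEfp cells against 9.34 in Ishikawa siControl cells, and of 8.82 in HEC-1A siEfp cells against 8.90 in HEC-1A siControl cells. The probe sets that carry H2BC21 together with other symbols did not show this, with differences of -0.04 and 0.01 in Ishikawa cells. H2BC12, an H2B gene of chromosome 6, had signals of 10.76 in Ishikawa siEfp cells against 11.36 in Ishikawa siControl cells, and of 11.03 in HEC-1A siEfp cells against 11.21 in HEC-1A siControl cells. In the probe sets of the single symbols, all 3 differences in HEC-1A cells, of -0.05, -0.08 and -0.18, were negative and inside 1.5-fold. The probe set that carries H2BC12 together with H2BC12L, H2BC17 and H2BC5 differed by -0.35 in Ishikawa cells and by -0.38 in HEC-1A cells. Whether these differences change between the lines was not tested.

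In HEC-1A cells, the replication-dependent genes past 1.5-fold were H2BC9 on the lower side and H2BC8 and H4C1 on the higher side. H2BC9, an H2B gene, had signals of 6.63 in HEC-1A siEfp cells against 7.41 in HEC-1A siControl cells, and of 7.54 in Ishikawa siEfp cells against 7.44 in Ishikawa siControl cells. H4C1, an H4 gene, had signals of 6.47 in HEC-1A siEfp cells against 5.84 in HEC-1A siControl cells, and of 7.46 in Ishikawa siEfp cells against 7.10 in Ishikawa siControl cells. Its differences of 0.63 in HEC-1A cells and 0.36 in Ishikawa cells ran the same way. The next lowest members in HEC-1A cells with at least the median signal were H2BC13 and H2AC15, with differences of -0.48 and -0.35, against -0.05 and -0.04 in Ishikawa cells. H2AC8 was the next highest after H4C1 among these members, with 0.45 in HEC-1A cells and 0.10 in Ishikawa cells, and in Ishikawa cells H2AC13 stood at 0.36 against 0.05 in HEC-1A cells. The pseudogene H2BC19P was also higher in HEC-1A siEfp cells, with 5.50 against 4.66 in HEC-1A siControl cells, both under the median signal.

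**Figure D3:**
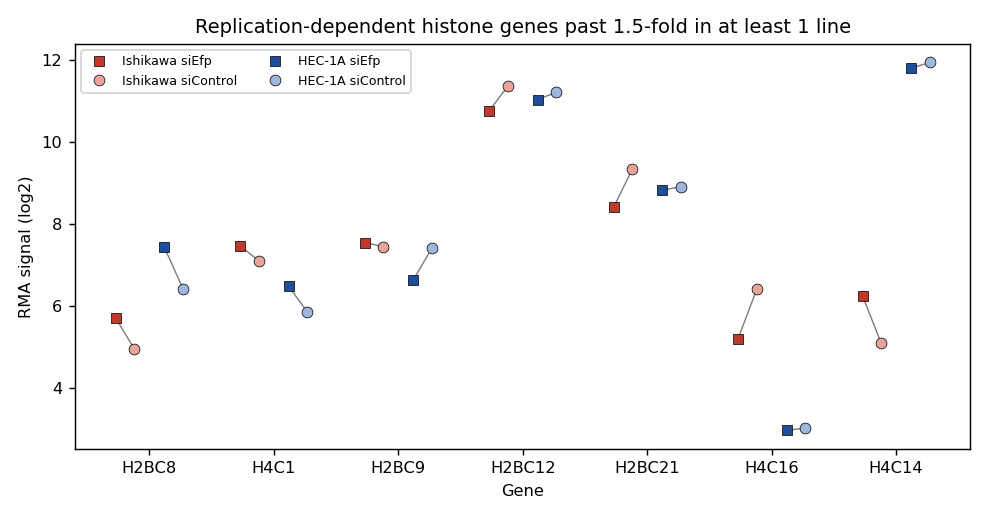
RMA signal (log2, vertical axis) of the replication-dependent histone genes past 1.5-fold in at least 1 line, with siEfp (squares) left of siControl (circles) for Ishikawa cells (red) and HEC-1A cells (blue). Each point is 1 array and lines join the arrays of 1 cell line; H2BC8 was higher with siEfp in both lines, while H4C14, which stands for H4C15 as well, had signals of 6.24 and 5.09 in Ishikawa cells and 11.80 and 11.94 in HEC-1A cells.

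Across the 2 lines, 41 of the 73 members had differences of the same sign, 21 of them lower and 20 higher with siEfp in both. Among the 57 replication-dependent genes the count was 29, and among the 12 variants it was 10, of which 4 were lower and 6 higher in both lines. Over all genes, 10652 of 18417 had the same sign. The signs of genes close to zero carry little information, and no test was made of these counts.

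**Figure D4:**
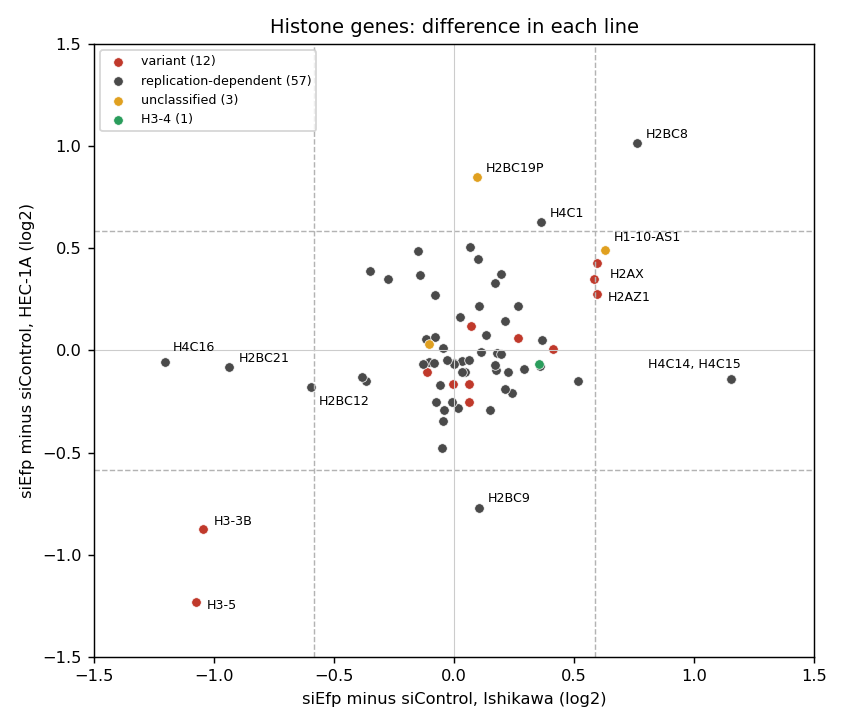
Difference between siEfp and siControl (log2) of each of the 73 histone genes in Ishikawa cells (horizontal axis) and HEC-1A cells (vertical axis). Colours give the class and dashed lines mark 1.5-fold; H3-5 and H3-3B lie past 1.5-fold lower in both lines and H2BC8 past 1.5-fold higher in both, while the other genes past a dashed line were so in 1 line.

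More histone genes were called between the lines than between the siRNAs, as was so over all genes. Of all 18417 genes, 3362 were called lower and 3124 higher in Ishikawa cells, against 29 lower and 1 higher with siEfp. In the same limma fit, 20 members were called higher in Ishikawa than in HEC-1A cells, among 17.0% of all genes, and 6 were called lower, among 18.3% of all genes. For this contrast the arrays of a line differed in siRNA, so no line had a replicate. The spread behind the adjusted p between the lines holds any difference of the siEfp effect between them. The called members were 18 replication-dependent genes with the 2 variants H3-3B and H3-5 on the higher side, and replication-dependent genes alone on the lower side. Of the 57 replication-dependent genes, 44 were higher in Ishikawa cells, or 77.2%, against 47.9% of all genes, and the median difference was 0.23. All 6 H1 genes and all 8 H3 genes of this class lay above zero, as did 10 of the 12 variants. Of these H1 and H3 genes, only H1-2, H3C1, H3C2 and H3C12 were called. Several genes lay close to zero, among them H1-3 at 0.003, H3C3 at 0.015 and H2AX at 0.007, where the sign carries little information. H3-3B was higher in Ishikawa cells by 0.59 (limma adjusted p = 0.0111) and H3-5 by 0.43 (limma adjusted p = 0.0369); without siRNA as a block neither passed, at adjusted p of 0.362 and 0.600.

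The widest gap among the members belonged to H4C14 and H4C15, 2 H4 genes of the chromosome 1 cluster. Their common signal was 6.24 in Ishikawa siEfp cells and 5.09 in Ishikawa siControl cells, and 11.80 in HEC-1A siEfp cells and 11.94 in HEC-1A siControl cells. The difference of Ishikawa minus HEC-1A was -6.21 (SE 0.28, limma adjusted p = 1.73e-05). Both Ishikawa signals lay below the median of all genes, where differences are compressed, so the size of the gap is uncertain. Their promoters on GRCh38.p14 were identical at 300 of 300 positions, and the 2 genes cannot be told apart here. A pair of further probe sets with both symbols gave 3.62 in Ishikawa siEfp cells and 3.75 in Ishikawa siControl cells, and 9.24 in HEC-1A siEfp cells and 8.98 in HEC-1A siControl cells, with a difference between the lines of -5.42. In those probe sets the siEfp difference in Ishikawa cells was -0.13, whereas it was 1.15 in the probe sets of the single symbols.

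H2AC8, an H2A gene on chromosome 6, was also lower in Ishikawa cells, with signals of 3.09 with siEfp and 2.99 with siControl, against 6.61 with siEfp and 6.16 with siControl in HEC-1A cells. The difference was -3.34 (limma adjusted p = 1.34e-05). The Ishikawa signals of H2AC8 were at the level of PTPRC, a leukocyte gene with 2.98 in Ishikawa siEfp cells and 2.90 in Ishikawa siControl cells, so the size of this difference is uncertain as well. H2BC8 was lower in Ishikawa cells by a log2 difference of -1.60 (limma adjusted p = 0.000201), H2AC25 by -1.14 and H2BC26 by -0.94. On the other side, H4C16 was higher in Ishikawa cells by 2.81 (limma adjusted p = 0.000321). H2AC21, an H2A gene of chromosome 1, had signals of 11.78 with siEfp and 11.62 with siControl in Ishikawa cells, against 10.15 with siEfp and 9.83 with siControl in HEC-1A cells, a difference of 1.71. H4C2 followed with 1.57, H4C8 with 1.43 and H2AC4 with 1.26. For H2AC21, the probe sets that carry it together with H2AC18, H2AC19 and H2AC20 gave a difference between the lines of 0.11.

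**Figure D5:**
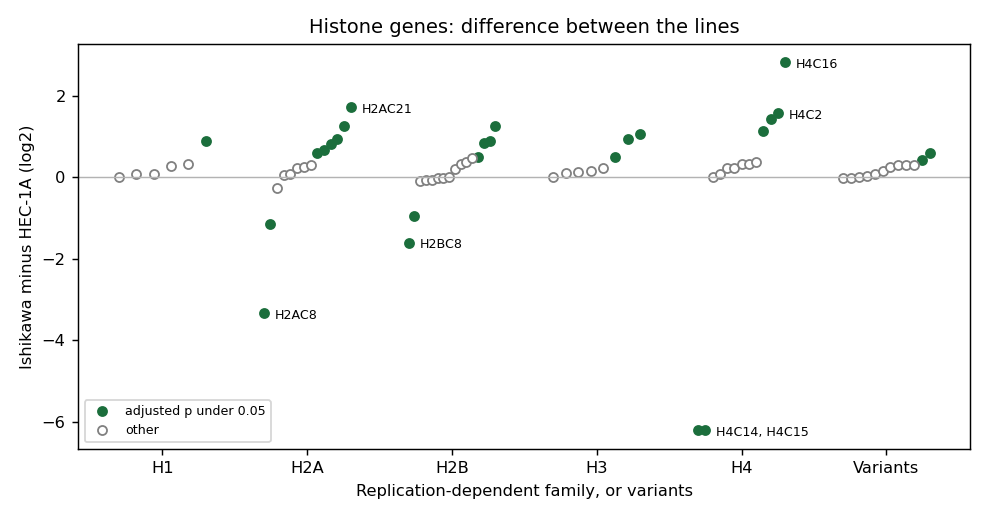
Difference between Ishikawa and HEC-1A cells (log2, mean over both siRNAs, vertical axis) of the replication-dependent histone genes by family and of the variants. Filled points had a limma adjusted p under 0.05. H4C14 and H4C15 lie at -6.21 and H4C16 at 2.81. All H1 and H3 points lie above zero, some of them close to it.

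Cluster genes for H2A and H2B often lie head to head and share the sequence between their starts. Among the members, 9 such pairs had promoter windows on opposite strands that overlapped, by 253 to 286 bases. In 7 of them both genes differed between the lines in the same direction, and in 5 both were called the same way by limma. Of all 73 members, 76.7% were higher in Ishikawa cells, against 47.9% of all genes, so many pairs of members share a direction whether or not they are neighbours. H2BC8 and H2AC8 formed 1 of these pairs and were both lower in Ishikawa cells, by log2 differences of -1.60 and -3.34, and H2AC25 and H2BC26 formed another, with -1.14 and -0.94. H2AC17 and H2BC17 were both higher in Ishikawa cells, with 0.81 and 0.88. Under siEfp, the differences of the paired genes had the same sign in 6 of the 9 pairs in Ishikawa cells and in 6 in HEC-1A cells. Among all 73 members, 30 were lower and 43 higher with siEfp in Ishikawa cells, and 44 were lower and 29 higher in HEC-1A cells. H2BC11 and H2AC11 differed by -0.38 and -0.37 in Ishikawa cells and by -0.13 and -0.15 in HEC-1A cells. H2BC21 differed by -0.94 in Ishikawa cells, and H2AC20, which shares its promoter window, by -0.07. No test was made of these pairs.

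Probe sets with several gene symbols covered further histone genes, 20 of which had no probe set of their own. There were 28 such probe sets, which held 24 distinct sets of values. Of these 28, 0 were past 1.5-fold with siEfp in either line, and their differences ranged from -0.38 to 0.36 in Ishikawa cells and from -0.38 to 0.33 in HEC-1A cells.

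Genes that make or handle histone mRNA and protein differed little as well between siEfp and siControl, as did most genes. Over all genes, 94.8% stayed within 1.5-fold in Ishikawa cells and 96.6% in HEC-1A cells, so the counts in these lists are near the share of all genes. Of 23 genes for the transcription and 3′ end processing of histone mRNA, 0 were past 1.5-fold in either line. SLBP, which binds the stem-loop, differed by 0.29 in Ishikawa cells and -0.08 in HEC-1A cells, and NPAT, the coactivator of histone gene transcription, by -0.18 and 0.19. CPSF3, the endonuclease that cuts histone pre-mRNA, differed by 0.47 in Ishikawa cells and 0.52 in HEC-1A cells, and SNRPF, a protein of the spliceosomal Sm ring, by -0.41 and 0.00. Of 29 histone chaperone genes, 0 were past 1.5-fold in either line; HIRA, of the complex that deposits H3.3, differed by -0.47 in Ishikawa cells and 0.07 in HEC-1A cells, and CHAF1A, of the replication-coupled H3 chaperone, by 0.02 and 0.27.

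Genes of S phase, when the cluster genes are transcribed, lay on both sides of zero. Of 35 measured, 2 were at least 1.5-fold lower in Ishikawa siEfp cells and 1 in HEC-1A siEfp cells, and 0 were higher. The 2 were UNG, a uracil DNA glycosylase, with -1.20 in Ishikawa cells and -0.41 in HEC-1A cells, and BLM, a DNA helicase, with -1.04 and -0.69. MCM2 and MCM6, subunits of the replicative helicase, differed by 0.47 and 0.35 in Ishikawa cells and by 0.47 and 0.57 in HEC-1A cells. The median of the list was -0.02 in Ishikawa cells and 0.11 in HEC-1A cells. Of 28 genes of G2 and mitosis, HMMR, a spindle protein, was the 1 past 1.5-fold, with 0.86 in Ishikawa cells and 0.54 in HEC-1A cells.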

How the data were processed

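Total RNA of 4 samples (150 ng each, per the labels) was hybridised to Affymetrix arrays. The paper names the GeneChip Human Exon array, whereas the probe set numbers are those of the Human Gene array. The authors deposited log2 signals per probe set. The submitters' processing notes name Affymetrix Expression Console and RMA, but no version or genome build. RMA gives the arrays similar but not identical distributions of signals. The median over genes was 6.34 on both Ishikawa arrays, 6.25 for HEC-1A siEfp and 6.27 for HEC-1A siControl. The differences of dim genes are compressed. How the RNA was primed, which bears on mRNAs without a poly(A) tail, is not stated in the sources read.

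Of 33297 probe sets, 19460 had exactly 1 gene symbol in the platform annotation and were averaged per gene; each of the 73 members had 1 probe set and a RefSeq gene ID. Classes follow the symbols: H2AC25 and H2BC26, older names H2AW and H2BU1, fell under the replication-dependent pattern, although they were meant to stand apart with H3-4. The members and lists were chosen with earlier results of these data known.

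With 1 array per condition, genes are counted at a 1.5-fold difference without a test. limma 3.58.1 in R 4.3.3 was fitted to all 18417 genes on 4 arrays with terms for cell line and siRNA (1 residual and 5.54 prior degrees of freedom; Benjamini-Hochberg adjustment, threshold 0.05), and was tested on simulated data. The lines are thereby treated as repeats of the siEfp effect. For the contrast between the lines, the siEfp and siControl arrays of a line are likewise treated as repeats of that line. Named genes are TRIM25, the 5 members at each end in each line and between the lines, variants with at least the median signal on 1 array, members past 1.5-fold in both lines, and up to 3 genes at each end of each list. Other genes, among them SLBP, NPAT, H1-10-AS1, H2BC19P, H2BC26, H4C14 and H4C15 in the siEfp contrast, the macroH2A gene and the head-to-head pairs, were named after their values were seen. Alternatives covered thresholds, filters on dim genes, class membership and the settings of limma. The number of arrays limits the precision.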

Additional observations from a re-analysis of the deposited data

Results flagged for a closer look

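H2BC9, H4C14 and H4C15 differed in opposite directions in the 2 lines and were past 1.5-fold in 1 of them. H2BC9 differed by 0.10 in Ishikawa cells and by -0.77 in HEC-1A cells. H4C14 differed by 1.15 in Ishikawa cells and by -0.14 in HEC-1A cells. H4C15 carried the same values as H4C14, 1.15 and -0.14, and the pair counts as 1 measurement. Their signals in Ishikawa cells, 6.24 with siEfp and 5.09 with siControl, lay below the median of all genes, which was 6.34 on both arrays. Whether the siEfp difference itself changes between the lines was not tested for any of the 3 genes, since each line has 1 array per condition.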

How the results depend on the processing

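At a 2-fold threshold the members lower with siEfp numbered 3 in Ishikawa cells and 1 in HEC-1A cells, and those higher 2 and 1. Without genes below the median signal, 2 members were higher in Ishikawa siEfp cells. Without the listed germline variants, H3-5 not being among them, the variant median was 0.26 in Ishikawa cells and 0.063 in HEC-1A cells. The replication-dependent median minus that value was -0.23 and -0.12. Without H3-3B and H3-5, an alternative chosen after seeing the data, the variant median was 0.17 in Ishikawa cells and the difference of the class medians -0.13. With class means in place of medians, that difference was 0.14 in HEC-1A cells. By limma over both lines, the members called lower numbered 0 without cell line as a block and 0 after a second quantile normalization, and 2 with an intensity trend, 2 without genes below the median signal on all 4 arrays and 2 at an adjusted p under 0.1. Those called higher numbered 1 under each of these last 3 settings. Over all genes, 29 were lower and 1 higher with siEfp, against 152 and 30 with the trend, 210 and 41 without dim genes, and 0 and 0 without the block and after the second normalization. That normalization turned the sign of 2 small values, H2AC4 with siEfp (0.0089) and H1-10 between the lines (0.033). The causes were not tested. The other 80 recomputed class values and counts moved by no more than 0.1 or 1.5 times. Some of them could not move, because each member had 1 probe set to choose from or because an alternative left the class as it was. No paired analysis was possible because the labels give no replicate numbers to pair arrays by, apart from the block on cell line in limma; without 1 line, the values of the other have no test.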

Other observations

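H3-4, the H3 gene kept apart from the classes, had signals of 5.52 in Ishikawa siEfp cells and 5.17 in Ishikawa siControl cells, and of 5.37 in HEC-1A siEfp cells and 5.44 in HEC-1A siControl cells, all below the median of all genes. MACROH2A2, the second macroH2A gene, had signals of 7.93 in Ishikawa siEfp cells and 7.89 in Ishikawa siControl cells, against 4.36 in HEC-1A siEfp cells and 4.77 in HEC-1A siControl cells, a gap between the lines of 3.34 (limma adjusted p = 1.67e-05).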
